A study of Mus musculus with 6 samples.

Results

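This account follows the neuroendocrine miRNAs miR-7 and miR-375 among the short RNAs bound to Argonaute (Ago) proteins in mouse brain. Members were picked by name: the rows that the deposited annotation assigned to miR-7a-5p, miR-7b-5p, miR-7a-1-3p or miR-375-3p. They are 4 of the 782 mature miRNAs found, and 78 of the 65087 unique sequences above 0. Of these 78 sequences, 31 belonged to miR-7a-5p, 6 to miR-7b-5p, 31 to miR-7a-1-3p and 10 to miR-375-3p. All 4 members passed the filter of a mean of at least 1 RPM (read numbers divided by the library's total and multiplied to a common scale), as did 689 miRNAs in all.

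The 6 samples were 3 WT mice and 3 Tau tg mice, and the comparison asks which R-sRNAs (short RNAs held by the RNA-induced silencing complex, RISC) change in a tauopathy model. Per the study's methods the mice were males of 3 months on a C57BL/6J background, and the Tau tg animals expressed a fragment of human tau under the Thy 1.2 promoter, which is active in neurons. The sample names gave the tissue as hippocampus, whereas the deposited protocol gave cortex and hippocampus combined. Ago complexes were pulled down from lysates with a peptide of GW182, a protein that binds every Ago family member. The deposited table carries no measurement of the transgene, so the genotype of the libraries was not checked.

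A miRNA is cut from a hairpin precursor as a duplex, and the strand that stays in RISC, the guide, pairs with mRNAs through its seed at positions 2 to 8. miR-7 is an old and highly conserved miRNA that is abundant in pituitary, hypothalamus and pancreatic islets, and it restrains α-synuclein and growth factor signalling. In brain it is held by the circular RNA Cdr1as and degraded with the help of the long noncoding RNA Cyrano (Oip5os1), while miR-671 cuts Cdr1as. miR-375 is best known from pancreatic islets and the pituitary, where it restrains hormone secretion. The tissue here is bulk brain, so fewer cells of a type and less of a miRNA per cell cannot be told apart.

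The mature sequences show which members can share targets. RefSeq sequences (GRCm38.p6) are printed with U and deposited reads with T, both 5′ to 3′, and capitals mark the seed at positions 2 to 8. The 2 guides of the family, miR-7a-5p and miR-7b-5p, and the 3 opposite arms of their hairpins are:
miR-7a-5p: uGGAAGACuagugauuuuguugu
miR-7b-5p: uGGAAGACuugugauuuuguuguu
miR-7a-1-3p: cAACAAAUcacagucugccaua
miR-7a-2-3p: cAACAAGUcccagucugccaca
miR-7b-3p: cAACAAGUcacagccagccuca
For miR-375-3p the most abundant deposited read is shown:
miR-375-3p: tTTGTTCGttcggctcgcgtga
The 2 guides share the seed GGAAGAC and differ at A10U, with positions counted from 1 at the 5′ end and the base of miR-7a-5p named before the position. The 3′ arms fall into 2 seed groups, with AACAAAU in miR-7a-1-3p and AACAAGU in miR-7a-2-3p and miR-7b-3p. miR-7a-1-3p and miR-7a-2-3p differ at A7G, A10C and U21C, so their reads can be told apart, whereas miR-7a-5p is the same in both hairpins that make it.

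The members come from 4 hairpins on 4 chromosomes of GRCm38. Mir7-1 (chr13:58392779-58392886, minus strand) lies in an intron of Hnrnpk, which encodes an RNA-binding protein. Mir7-2 (chr7:78888277-78888373, plus strand) overlaps no annotated gene, and the nearest gene on its right, Aen, starts 7481 bp away. Mir7b (chr17:56242988-56243098, plus strand) also overlaps no gene. Mir375 (chr1:74900658-74900721, minus strand) lies between Cryba2 at 7515 bp and Cfap65 at 1350 bp, and the miR-375-3p read above matched chr1:74900661-74900682.

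All 4 members were minor R-sRNAs of brain. The recovered reads ranged from 998248 in WT 3 to 6879551 in Tau tg 1, and a count of 0 allows up to 0.427 to 2.75 RPM depending on the sample. By mean over the 6 samples miR-7a-1-3p ranked 172, miR-7a-5p 186, miR-375-3p 313 and miR-7b-5p 316 among the miRNAs. The 95% Poisson intervals given here cover counting error only, since reads copied from the same molecule by PCR cannot be told apart.

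mmu-miR-7a-5p, the main guide of the family, was at 278, 492 and 227 RPM in WT 1 to 3, from 593, 726 and 248 reads. In Tau tg 1 to 3 it was at 230, 227 and 482 RPM, from 1619, 271 and 1179 reads. WT 2 and Tau tg 3 were the high samples and the other 4 lay between 227 and 278 RPM, so the groups overlapped fully. The group means were 332 ± 140 RPM (SD, n = 3) in WT and 313 ± 147 RPM (SD, n = 3) in Tau tg. The log2 difference, Tau tg minus WT, was -0.10 (SE 0.44, 95% interval -1.04 to 0.84), with a limma adjusted p of 0.966 over all miRNAs tested. Its sign turned when WT 2 (0.22), Tau tg 1 (0.07) or Tau tg 2 (0.08) was left out.

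mmu-miR-7b-5p, the second guide, was at 47.3, 101 and 17.4 RPM in WT, from 101, 149 and 19 reads. It was at 62.0, 61.9 and 76.9 RPM in Tau tg, from 436, 74 and 188 reads. The Tau tg mice lay close together, and WT held both the highest and the lowest value. The means were 55.2 ± 42.3 RPM (SD, n = 3) in WT and 66.9 ± 8.64 RPM (SD, n = 3) in Tau tg. The log2 difference was 0.59 (SE 0.72, 95% interval -0.94 to 2.11, limma adjusted p 0.896). Count models of the recovered reads gave 0.17 (edgeR) and 0.14 (DESeq2), and without WT 3, whose value rests on 19 reads, the limma difference was -0.05.

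mmu-miR-7a-1-3p, the 3′ arm of Mir7-1, was at 377, 524 and 320 RPM in the WT mice, against 531, 318 and 346 RPM in the Tau tg mice. WT 2 and Tau tg 1 were the high samples, and the other 4 lay between 318 and 377 RPM. The means were 407 ± 105 RPM (SD, n = 3) and 398 ± 116 RPM (SD, n = 3), and the coefficient of variation over all 6 samples, 24.6%, was the lowest among the members. The log2 difference was -0.04 (SE 0.38, 95% interval -0.85 to 0.77, limma adjusted p 0.987), and its sign turned without WT 2 (0.16), Tau tg 2 (0.11) or Tau tg 3 (0.04).

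mmu-miR-375-3p was at 41.2, 53.5 and 59.6 RPM in WT, from 88, 79 and 65 reads. It was at 61.3, 76.1 and 89.2 RPM in Tau tg, from 431, 91 and 218 reads. All 3 Tau tg mice were above all 3 WT mice, but by a narrow margin: the 95% Poisson interval of WT 3 (46.0 to 76.0 RPM) contained that of Tau tg 1 (55.7 to 67.4 RPM). The means were 51.5 ± 9.38 RPM (SD, n = 3) in WT and 75.5 ± 13.9 RPM (SD, n = 3) in Tau tg. The log2 difference was 0.54 (SE 0.60, 95% interval -0.73 to 1.82), with a limma p of 0.379 and an adjusted p of 0.896. Groups did not overlap for 9.53% of the 472 miRNAs above 0 in every sample, and for 7.42% with Tau tg higher.

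**Figure D1:**
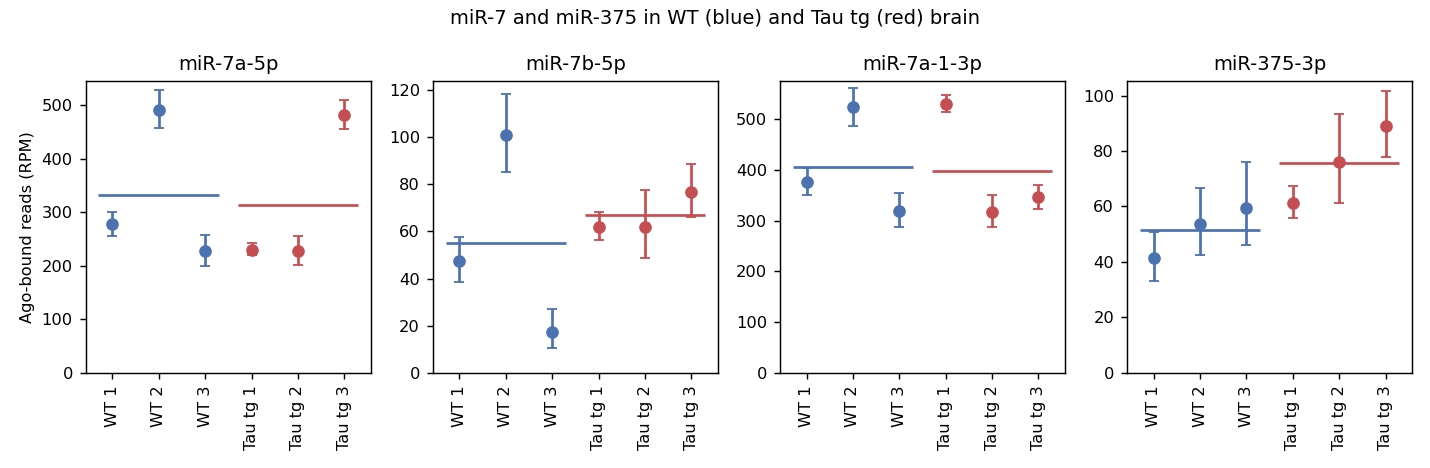
Ago-bound reads (RPM, linear axes from 0) of the 4 members in each WT (blue) and Tau tg (red) mouse. Points are samples with 95% Poisson intervals of their reads and lines are group means; only miR-375-3p has all Tau tg points (61.3 to 89.2 RPM) above all WT points (41.2 to 59.6 RPM).

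None of the members passed a limma p of 0.05 before adjustment. Over all miRNAs 25 did so, or 3.63%, with 14 higher in Tau tg (2.03%) and 11 lower (1.6%), and without WT 1 the count was 50. At an adjusted p of 0.05 limma and edgeR called 0 miRNAs, and DESeq2 called 5. The median log2 difference of all miRNAs was 0.25 on the authors' scale, 0.09 after median-of-ratios scaling and 0.06 after quantile normalization. Relative to that median of 0.25 the members lay at -0.35 (miR-7a-5p), 0.34 (miR-7b-5p), -0.28 (miR-7a-1-3p) and 0.30 (miR-375-3p). The signs of the 4 members themselves were the same under each scaling.

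The proportions among members varied widely between mice of a group. The log2 ratio of miR-7a-5p to miR-7b-5p was 2.53, 2.27 and 3.63 in WT and 1.88, 1.86 and 2.63 in Tau tg. The difference in this ratio was -0.69 (exact two-sided permutation p = 0.3, adjusted p = 1 over 15 measures). miR-7b-5p made up 7.12% to 17.0% of the miR-7 guides in WT and 13.8% to 21.4% in Tau tg. The lowest share, in WT 3, rests on 19 reads of miR-7b-5p. The log2 ratio of miR-375-3p to miR-7a-5p was -2.72, -3.18 and -1.91 in WT and -1.89, -1.56 and -2.42 in Tau tg, a difference of 0.65 (exact permutation p = 0.2, adjusted p = 1). With 20 assignments of the samples no measure could reach a p below 0.1.

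The 3′ arms of the miR-7a hairpins were bound at levels like those of miR-7a-5p, which is called the guide by convention and not from these levels. miR-7a-2-3p, the opposite arm of Mir7-2, was at 178, 209 and 11.01 RPM in the WT mice, against 199, 97.8 and 148 RPM in the Tau tg mice. Together the 3′ arms of Mir7-1 and Mir7-2 exceeded miR-7a-5p in all 6 mice, with miR-7a-5p at 0.315 times their sum in Tau tg 1 and 0.976 times in Tau tg 3. The log2 ratio of miR-7a-5p to miR-7a-1-3p was -0.44, -0.09 and -0.49 in WT and -1.20, -0.49 and 0.48 in Tau tg. Only Tau tg 3 had more of the guide than of miR-7a-1-3p, and the group difference was -0.06 (exact permutation p = 0.9). The 3′ arm of Mir7-1 was 2.12 to 3.25 times that of Mir7-2 in 5 mice and 29.1 times in WT 3, where miR-7a-2-3p was lowest.

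The other 2 hairpins were skewed differently. miR-7b-3p was at 12.2, 1.36 and 32.1 RPM in the WT mice, against 4.27, 0 and 10.6 RPM in Tau tg, below miR-7b-5p in 5 of 6 mice and above it in WT 3. The 5′ arm of the miR-375 hairpin, miR-375-5p, was listed at 0 in all 6 samples. Reads assigned to these hairpins but to no mature arm amounted to 0.836 to 10.6 RPM.

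**Figure D2:**
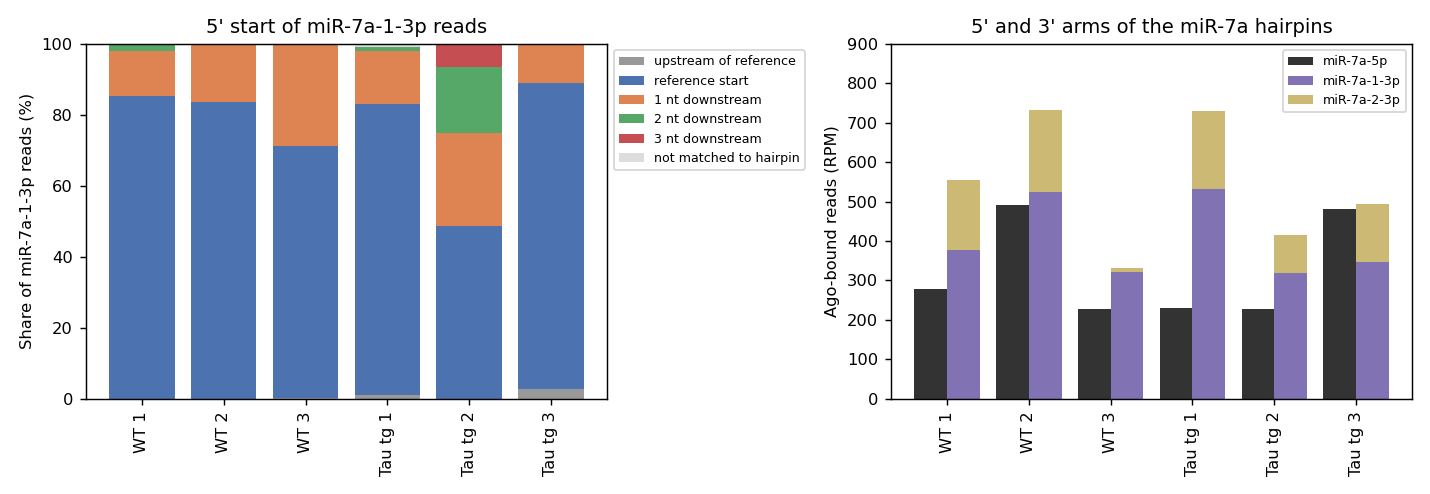
Left, share (%) of miR-7a-1-3p reads in each sample by the distance of their 5′ start from the reference start; right, RPM of miR-7a-5p (black) beside the stacked 3′ arms miR-7a-1-3p and miR-7a-2-3p. Tau tg 2 has the smallest share at the reference start (48.7%), and the stacked 3′ arms are taller than the guide in every sample.

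Most miR-7a-5p reads differed from the RefSeq form only in their last bases. The most abundant read was 24 nt long, 1 nt longer than the RefSeq form, and matched Mir7-1 and Mir7-2 in full. It is shown with the next shorter reads to mark where they end:
miR-7a-5p, 24 nt: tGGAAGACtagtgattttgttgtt
miR-7a-5p, 23 nt: tGGAAGACtagtgattttgttgt
miR-7a-5p, 22 nt: tGGAAGACtagtgattttgttg
The 24-nt read was at 141, 179 and 115 RPM in the WT mice, against 110, 109 and 156 RPM in the Tau tg mice. The 23-nt read was at 67.9, 179 and 76.1 RPM in the WT mice, against 60.9, 76.9 and 213 RPM in Tau tg. The 22-nt read was at 25.3, 119 and 22.9 RPM in the WT mice, against 33.3, 21.7 and 74.5 RPM in Tau tg. WT 2 and Tau tg 3, the samples high in miR-7a-5p, were high in all 3 lengths. These 3 reads made up 91.9% of miR-7a-5p. The RefSeq form held 24.5% to 44.2% of reads, and the reference 5′ start was used by 93.4% to 100% of reads. The next 3 reads, of 21, 20 and 25 nt, averaged 5.84, 4.79 and 1.98 RPM.

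miR-7b-5p was made of 6 sequences, all with the reference 5′ start. Its 24-nt RefSeq form was at 19.2, 51.5 and 10.1 RPM in the WT mice, against 27.3, 11.7 and 40.9 RPM in Tau tg. The 23-nt form was at 19.2, 38.6 and 5.50 RPM in the WT mice, against 26.2, 23.4 and 27.8 RPM in Tau tg. These 2 forms made up 82.3% of its reads. Tau tg 2 was the exception, with 18.9% of reads in the RefSeq form against 40.6% to 57.9% in the other 5 mice, and with 35.1% of reads of 22 nt.

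miR-7a-1-3p varied at both ends. Its reads carried 9 seeds, against 1 for miR-7b-5p, 3 for miR-375-3p and 7 for miR-7a-5p. The 22-nt RefSeq form was at 199, 89.4 and 142 RPM in the WT mice, against 197, 32.6 and 114 RPM in the Tau tg mice, and the 21-nt form was at 60.4, 240 and 70.6 RPM in the WT mice, against 155, 100 and 137 RPM in the Tau tg mice. Their order therefore turned between mice, with the 21-nt form ahead in WT 2, Tau tg 2 and Tau tg 3. The read that starts 1 nt downstream is printed under the RefSeq form as read, since the shift changes the seed:
miR-7a-1-3p, reference start: cAACAAATcacagtctgccata
miR-7a-1-3p, start shifted by 1 nt: aACAAATCacagtctgccata
The shifted read was at 28.6, 68.4 and 38.5 RPM in the WT mice, against 32.2, 28.4 and 10.6 RPM in Tau tg. All reads that start 1 nt downstream made up 12.5%, 16.2% and 28.7% in WT and 14.7%, 26.3% and 10.9% in Tau tg. Shares between groups overlapped, with WT 3 and Tau tg 2 highest. Reads that start 2 nt downstream reached 18.4% in Tau tg 2. A read of the 22-nt form with the last A replaced by T was at 0 in WT 3 and at 20.1 to 75.9 RPM in the other 5 mice.

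miR-375-3p had a single dominant form, and whether the groups overlapped depended on which reads were counted, while the Tau tg mean was the higher in each count. The 22-nt read held 74.3% of its reads and was at 38.4, 39.3 and 53.2 RPM in the WT mice, against 46.7, 36.0 and 69.6 RPM in Tau tg, so the groups overlapped. A read 1 nt shorter was at 37.6 RPM in Tau tg 2, from 45 reads, and at 0 to 1.87 RPM in the other 5 mice:
miR-375-3p, 22 nt: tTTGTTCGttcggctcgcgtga
miR-375-3p, 21 nt: tTTGTTCGttcggctcgcgtg
A read that ends in T in place of the last A was at 12.2 RPM in WT 2, 1.84 RPM in WT 3, 5.55 RPM in Tau tg 1, 5.73 RPM in Tau tg 3 and 0 in the remaining 2. Without isoforms of which 1 sample held over 75% of the summed RPM and at least 5 RPM, a choice made after seeing the data, miR-375-3p was at 39.3, 51.5 and 59.6 RPM in the WT mice, against 60.9, 36.8 and 80.6 RPM in the Tau tg mice. The sample Tau tg 2 was then the lowest of all 6 samples, and the log2 difference was 0.19 (limma p 0.774). The share of reads in the 22-nt form was 93.2%, 73.4% and 89.2% in WT and 76.1%, 47.3% and 78.0% in Tau tg, a difference of -18.2 percentage points (exact permutation p = 0.3, adjusted p = 1). That difference was -8.23 points without Tau tg 2 and -0.84 points without the isoforms held mostly by 1 sample.

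**Figure D3:**
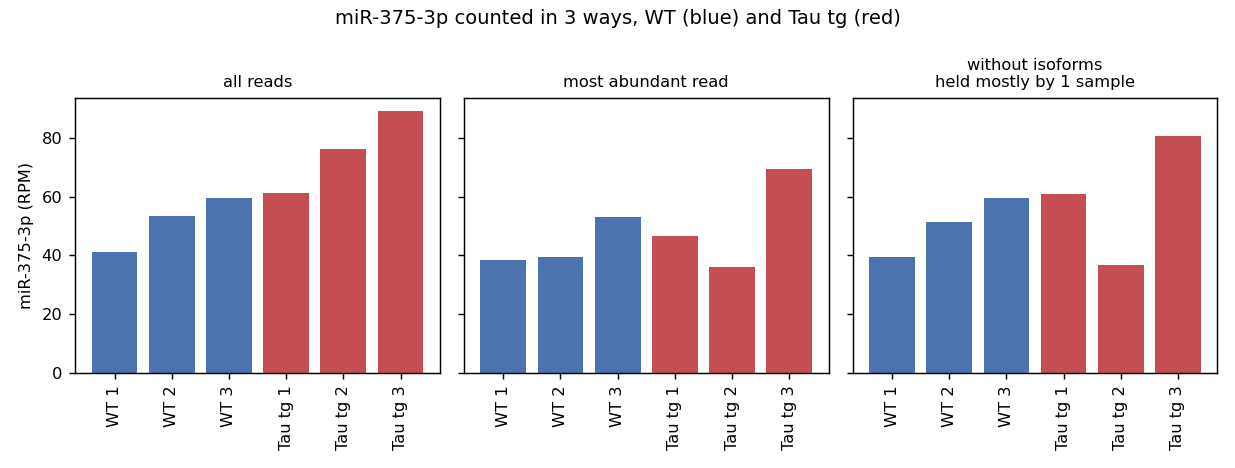
miR-375-3p (RPM, bars from 0) in each WT (blue) and Tau tg (red) mouse from all reads, from the most abundant 22-nt read alone, and without isoforms held mostly by 1 sample. The groups do not overlap in the left panel, whereas in the other panels Tau tg 2 (36.0 and 36.8 RPM) falls below every WT sample.

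**Figure D4:**
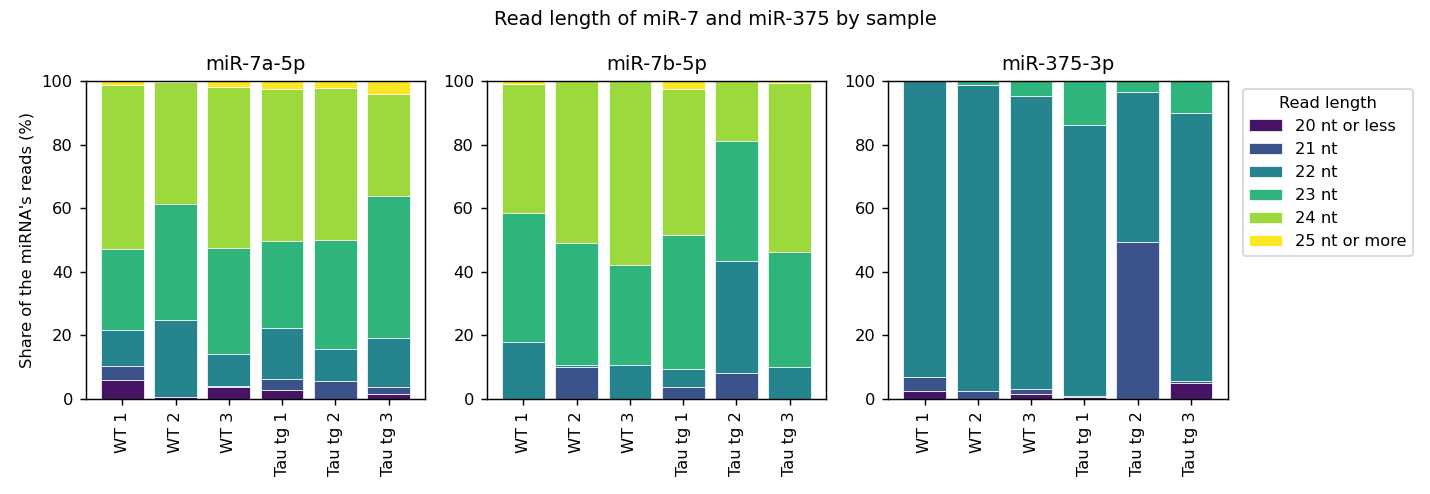
Share (%) of the reads of miR-7a-5p, miR-7b-5p and miR-375-3p by read length in each sample. Forms of 24 and 23 nt lead for the miR-7 guides in most samples and 22 nt leads for miR-375-3p, except in Tau tg 2, where 49.5% of miR-375-3p reads were 21 nt long.

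Of the 78 member sequences 29 (37.2%) were above 0 in a single sample, 17 of them with at least 8 reads, and 12 (15.4%) were above 0 in all 6 samples. Over the 65087 sequences of the table these shares were 60.0% and 8.96%. Of the 37 that passed the filter none reached a limma p of 0.05, the lowest being 0.0676 for the 21-nt read of miR-7a-5p. Over all sequences 803 of 36070 did (2.23%), 10 of them (0.0277%) at an adjusted p of 0.05, and without Tau tg 2 the count was 531.

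The seeds of the members were compared without using the miRNA annotation, by summing all reads with the same 6mer at positions 2 to 7. The authors scored each 6mer by the viability (%) of cells given a short RNA that carries it, as a mean of 3 murine cell lines, so low values mark toxic seeds. The miR-7 guide seed GGAAGA had a 6mer seed viability of 50.9% and that of miR-375-3p, UUGUUC, of 45.6%. The miR-7a-1-3p seed AACAAA had 76.1%, and its shifted form ACAAAU had 77.2%. Thus the miR-7 guides and miR-375-3p carried less tolerated seeds than AACAAA and ACAAAU of miR-7a-1-3p, and the other opposite arms were not compared. A shift of 1 nt in miR-7a-1-3p changed the 6mer but moved its viability little. Its reads that start 2 nt downstream carried CAAAUC, with a lower viability of 53.3%.

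GGAAGA was at 307, 615 and 245 RPM in the WT mice, against 289, 304 and 557 RPM in the Tau tg mice, and the members supplied 94.5% to 100% of it. Its log2 difference was 0.03 (limma p 0.952). UUGUUC was at 49.7, 75.2 and 73.4 RPM in the WT mice, against 62.6, 90.3 and 109 RPM in Tau tg, with 71.2% to 89.5% from miR-375-3p, a log2 difference of 0.39 (limma p 0.544). Unlike miR-375-3p itself, the groups of this seed overlapped. AACAAA is shared with miR-495-3p, which averaged 568 RPM, and members gave only 19.6% to 48.5% of that seed. ACAAAU came to 92.6% to 100% from miR-7a-1-3p. The log2 differences of the latter 2 seeds were -0.06 and -0.23 (limma p 0.878 and 0.730), and both turned positive under median-of-ratios scaling (0.20 and 0.03). No member seed reached a limma p of 0.05, which 172 of 3987 seeds did (4.31%), 5 of them (0.125%) at an adjusted p of 0.05, and without Tau tg 1 the count was 105.

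The rest of the miR-7 circuit was covered only in part. miR-671-5p was at 39.3, 14.2 and 44.9 RPM in the WT mice, against 42.3, 31.8 and 36.4 RPM in Tau tg. miR-671-3p was at 22.02, 9.49 and 22.02 RPM in the WT mice, against 19.2, 49.3 and 25.4 RPM in Tau tg. Groups overlapped for both arms, and neither reached a limma p of 0.05. No read was assigned to the 2 Oip5os1 transcripts looked up. Cdr1as was not looked up by transcript and was not measured here.

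Several other miRNAs of pituitary and islets were lower in Tau tg before adjustment, which no member was. Of 11 listed miRNAs 6 were lower in Tau tg at a limma p of 0.05 (miR-200a-3p, miR-200b-3p, miR-200c-3p, miR-429-3p, miR-182-5p and miR-96-5p), against 1.6% of all miRNAs, 0 were higher, and 0 passed limma adjustment (0 with edgeR, 4 with DESeq2). The list was chosen with earlier results of these data known, so setting it beside all miRNAs is not a test. The 6 come from the miR-200 family and the miR-183, miR-96 and miR-182 cluster, so they are not separate observations. Without WT 1 the count lower was 8, without Tau tg 3 it was 4, and without Tau tg 1 a single listed miRNA passed adjustment. Their median log2 difference was -1.21, beside 0.25 over all miRNAs. Among the 6 lower ones, groups overlapped for miR-200a-3p and miR-200c-3p. WT 1 was the lowest WT mouse for all of the 6 except miR-200c-3p. For miR-200a-3p WT 1 was at 930 RPM, against 906, 980 and 877 RPM in Tau tg. miR-429-3p, an epithelial miRNA of the miR-200 family, was at 232, 1020 and 1281 RPM in the WT mice, against 205, 36.0 and 63.4 RPM in Tau tg. miR-184-3p went the other way, at 0, 0 and 2.75 RPM in WT and 6.97, 3.35 and 22.1 RPM in Tau tg (limma p 0.0527). The 8 markers of pituitary and other epithelial cells are all among these 11 miRNAs and include the 6 lower ones. Their sum is therefore not a separate observation. The 8 markers summed to 3432 to 11135 RPM in WT and 2401 to 2784 RPM in Tau tg, and all 8 were above 0 in every sample. Their part in the level of miR-7 and miR-375 was not tested.

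**Figure D5:**
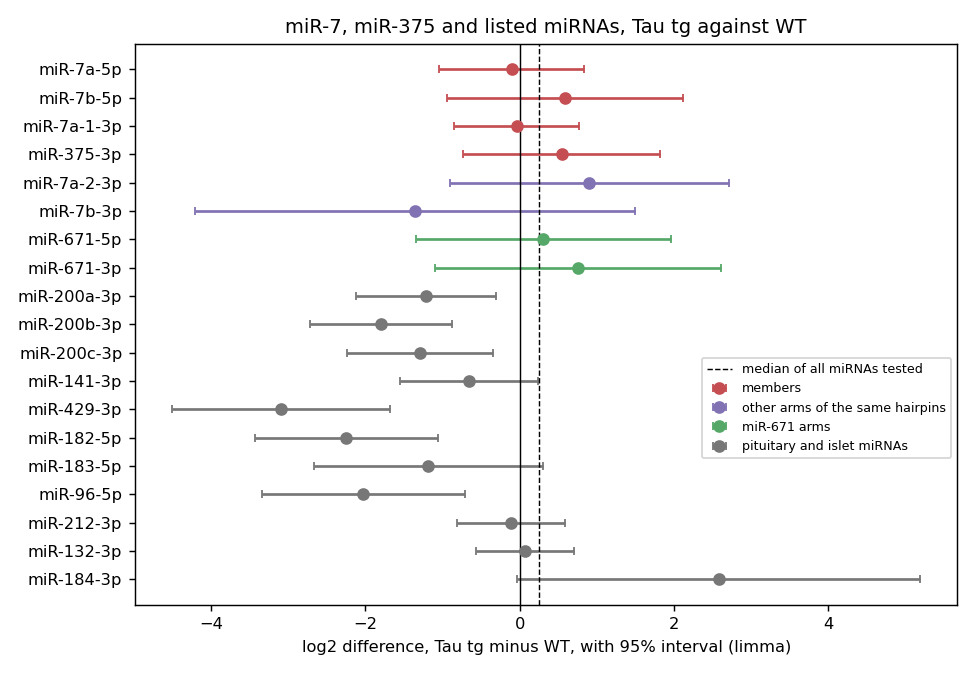
Log2 difference, Tau tg minus WT, with 95% limma intervals for the 4 members (red), the other arms of their hairpins (purple), the miR-671 arms (green) and the listed pituitary and islet miRNAs (grey); the dashed line is the median of all miRNAs tested (0.25). The intervals of all 4 members include 0, while those of 6 listed miRNAs lie below it. The list was chosen with earlier results of these data known.

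Markers of brain cells were present. The 4 neuronal markers summed to 141556 to 151078 RPM in WT and 140317 to 158895 RPM in Tau tg, but they differed in sign. Their log2 differences were -0.36 for miR-124-3p, 0.53 for miR-9-5p, 0.31 for miR-128-3p and 0.14 for miR-138-5p. miR-9-5p was at 37677, 29427 and 29628 RPM in WT, against 44565, 48005 and 46351 RPM in Tau tg (limma p 0.114). Groups did not overlap for 9.53% of the miRNAs above 0 in every sample. The 6 choroid plexus markers summed to 2782 to 6078 RPM in WT and 2689 to 11812 RPM in Tau tg, with Tau tg 1 highest. No marker of neurons, oligodendrocytes, microglia and leukocytes, red blood cells, choroid plexus, liver or muscle reached a limma p of 0.05 with all 6 samples. miR-122-5p of liver was at 0 to 28.4 RPM. Of the red cell miRNAs, miR-451a was at 266 to 814 RPM and miR-144-3p at 151 to 518 RPM over the 6 samples. miR-486a-5p and miR-486b-5p, also on that list, were at 0 throughout.

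Across the 6 samples the members did not share a single pattern. The Pearson correlation of log2(RPM + 1) was 0.64 between miR-7a-5p and miR-7b-5p, 0.28 between miR-7a-5p and miR-7a-1-3p, 0.18 between miR-7a-5p and miR-375-3p and -0.35 between miR-375-3p and miR-7a-1-3p. For miR-7b-5p it was 0.54 with miR-7a-1-3p and 0.20 with miR-375-3p. These are descriptions over 6 libraries that differ in depth and in genotype. Of 475 miRNAs with a mean of at least 10 RPM, those most like miR-7a-5p were miR-19b-1-5p (0.86), miR-337-3p (0.84) and miR-103-2-5p (0.83). Those most like miR-7b-5p were miR-187-5p (0.98), miR-128-2-5p (0.97) and miR-504-5p (0.96), all lowest in WT 3 and highest in WT 2. Those most like miR-375-3p were miR-345-5p (0.91), miR-455-5p (0.89) and miR-582-3p (0.86).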

How the data were processed

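Ago-bound RNA of 19 to 35 nt from 3 WT and 3 Tau tg brains was sequenced on an Illumina HiSeq instrument, per the labels. The deposited reads themselves were 15 to 30 nt long. Groups and replicate numbers came from the sample titles. The authors trimmed reads (Trim Galore), compiled unique sequences, removed rare reads and annotated them by BLAST with the SPOROS pipeline. The deposited values are RPM, scaled to library size by the authors, and the deposited viability score of each 6mer seed was used unchanged. Because rare reads were dropped, low values are incomplete. Recovered read numbers were whole for 100% of values within 0.001 RPM.

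Rows were summed by the authors' miRNA column, by sequence and by seed. Each level was fitted with limma 3.58.1 (R 4.3.3, mean-variance trend) after adding 1 RPM and taking log2, keeping rows whose mean reached 1 RPM, and p-values were adjusted by Benjamini-Hochberg over all rows kept. Fold changes on this scale understate the change of low rows. p-values measure the spread between these mice; separate litters or batches are not stated. Ratios and isoform shares were tested by exact permutation, two-sided, of the samples (20 assignments). The fits were tested on simulated data. Alternatives included count models of the recovered reads with edgeR 4.0.16 and DESeq2 1.42.0. Python 3.11.15, pandas 2.3.3, NumPy 2.4.6, SciPy 1.17.1 and Matplotlib 3.10.9 were used. Members, lists and tests were chosen with earlier results of these data known. The rule for named items took the 4 members, their reference read and 5 most abundant isoforms, the other arms, miR-671, 11 pituitary and islet miRNAs, marker lists and the 3 most alike miRNAs. Hairpin positions and mature sequences are from RefSeq (GRCm38.p6) and gene annotation from GENCODE M21; the authors' mRNA names refer to mm9, and their coordinates were not used.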

Additional observations from a re-analysis of the deposited data

How the results depend on the processing

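No alternative tried brought a member past a p of 0.05. Leaving out each sample in turn, where the group left with 2 mice is assumed to vary like the other, gave log2 differences of -0.46 to 0.22 for miR-7a-5p, -0.054 to 1.18 for miR-7b-5p, -0.26 to 0.16 for miR-7a-1-3p and 0.40 to 0.68 for miR-375-3p. The same gave -0.28 to 0.41 for seed GGAAGA, 0.20 to 0.60 for UUGUUC, -0.48 to 0.34 for AACAAA and -0.54 to 0.13 for ACAAAU. Counts at an unadjusted p of 0.05 ranged from 18 to 50 miRNAs, 531 to 942 sequences and 105 to 232 seeds. Of the other settings, those that moved a count by over 1.5 times concerned sequences, with 429 at a pseudocount of 5 RPM, 167 at a mean of at least 10 RPM (where fewer rows are tested), 2565 with edgeR and 3344 with DESeq2, against 803. The cause of the rise with count models was not tested. Seed AACAAA turned from -0.06 to 0.20 with median-of-ratios scaling, 0.25 with edgeR and 0.15 with DESeq2. Seed ACAAAU turned from -0.23 to 0.033 with median-of-ratios scaling, 0.077 with quantile normalization, 0.22 with edgeR and 0.12 with DESeq2.

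Among the ratios and isoform shares, leaving out each sample gave differences of -0.50 to 0.34 for the log2 ratio of miR-7a-5p to miR-7a-1-3p, -0.96 to -0.28 for that to miR-7b-5p and 0.36 to 0.99 for that of miR-375-3p to miR-7a-5p. For miR-7a-5p the ranges were -1.25 to 2.04 percentage points for the reference start, -1.24 to 7.64 for the RefSeq form, 0.56 to 2.14 for 3′ ends that depart from the hairpin and -0.0058 to 0.106 nt for length. For miR-7b-5p they were -0.064 to 2.11 points for departing 3′ ends and -0.314 to 0.069 nt for length. For miR-375-3p they were -3.50 to 0.80 points for the reference start, -24.1 to -8.23 for the 22-nt form, -3.63 to 8.40 for departing 3′ ends and -0.199 to 0.095 nt for length. Keeping only isoforms with at least 3 reads in every sample turned the ratio of miR-7a-5p to miR-7a-1-3p to 0.16 and the length of miR-7a-5p to -0.024 nt. Leaving out isoforms held mostly by 1 sample, chosen after seeing the data, turned that ratio to 0.024, the reference start of miR-7a-5p to -1.22 points, its length to -0.028 nt, departing 3′ ends of miR-375-3p to -1.90 points and its length to 0.027 nt. The same choice brought the share of its 22-nt form from -18.2 to -0.84 points and cut the log2 difference of miR-375-3p from 0.54 to 0.19.

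With the replicate number as a replicate block, 22 miRNAs, 809 sequences and 188 seeds had a p under 0.05. The numbers are not stated to pair mice, and samples with the same number deviated from their group means with correlations of -0.002, -0.069 and 0.041. With 3 mice a group the 95% limma intervals were wide, from -0.94 to 2.11 for miR-7b-5p and from -0.73 to 1.82 for miR-375-3p, so these data bound the differences only loosely.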
